A study of Mus musculus with 2 samples.

Results

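The IgLON genes encode a family of cell adhesion molecules of the nervous system, and they are described here through the anti-FLAG CUT&Tag peaks assigned to them in mouse hippocampus. The members were the protein-coding genes Negr1, Lsamp, Ntm, Opcml and Iglon5, together with 4930570G19Rik, a long noncoding RNA (lncRNA) gene next to Negr1. A peak counted as a member when the deposited annotation table assigned it to 1 of these 6 genes, and 252 of 99797 peaks did. The noncoding gene was included because 1 peak assigned to it also covers the Negr1 start, and that peak was chosen by its total signal, which ranks near the top of the same list. Its height and rank are therefore a description and support nothing further. The other members were chosen by family, as genes that share a fold with Negr1, and not by peak signal. Earlier results of these data were known when the members were chosen.

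CUT&Tag uses an antibody to bring a DNA-cutting transposase to the chromatin that the antibody's target occupies, so that sequenced fragments pile up there as peaks. The target was PARIS, a zinc-finger repressor protein (mouse gene Zfp746), detected through a FLAG tag in the hippocampus of CamK-PARIS mice on the C57BL/6J strain. The study had 1 anti-FLAG library and 1 IgG negative-control library, both from this genotype and both from untreated tissue. The IgG library entered only through the peak calling. The labels used here give neither the age or number of the mice nor the promoter that drives the tagged protein. With 1 library per antibody there is no replicate error, the sequencing depth is unknown, and every interval below covers counting error over peaks only.

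IgLON proteins are held on the neuronal surface by a lipid (GPI) anchor and carry immunoglobulin-like domains that bind other IgLONs on the same or a facing cell. They are known for guiding neurite outgrowth and synapse formation, in the hippocampus among other regions. NEGR1 (neuronal growth regulator) is known for a human locus linked to body weight, LSAMP for its enrichment in the limbic system, NTM (neurotrimin) for neurite growth, OPCML for its name as an opioid-binding protein, and IGLON5 as the antigen of an autoimmune sleep disorder.

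In the whole list, 63.3% of the 99782 annotated peaks had a constant height, meaning that the total signal was at least 99% of the maximum signal times the width, as in a rectangle. The median of the authors' maximum signal was 101 in the full list, and 8.78% of peaks reached 200. For the tissue label, genes with a peak within 1 kb of an annotated start were counted in lists of cell type markers. The count was 3 of 4 for excitatory neurons (Camk2a, Slc17a7 and, with constant height only, Prox1, but not Neurod6), 2 of 2 for interneurons (Gad1 and Gad2), 0 of 3 for astrocytes, 0 of 3 for oligodendrocytes and 1 of 3 for microglia (P2ry12, also with constant height only). Of all protein-coding genes, 47.6% had such a peak.

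The highest peaks at IgLON starts lay at starts that were CpG-rich by the limits given below. Stretches from the Negr1 and Ntm peaks are shown here with every CG in capitals, beside one from Iglon5, whose start is not CpG-rich. All sequences are 5′ to 3′ on the strand given, from the mouse reference GRCm38.p6 (mm10). The Negr1 summit is chr3:156560791-156560990 (+ strand), centred on the maximum of the peak over the Negr1 start, and the Negr1 promoter is chr3:156561590-156561789 (+ strand), which ends at the base before the RefSeq start of Negr1 and overlaps the exon 1 of 4930570G19Rik. The Ntm internal promoter is chr9:29412686-29412773 (- strand), from the upstream edge of the peak over an internal Ntm start to the base before its RefSeq start. The Iglon5 intron 1 stretch is chr7:43488697-43488796 (- strand), at the maximum of the peak nearest to the Iglon5 start.
Negr1 summit: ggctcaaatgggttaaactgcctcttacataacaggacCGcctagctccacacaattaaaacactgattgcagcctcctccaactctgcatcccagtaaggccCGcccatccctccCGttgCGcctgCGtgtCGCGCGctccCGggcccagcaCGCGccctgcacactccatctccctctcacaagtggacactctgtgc
Negr1 promoter: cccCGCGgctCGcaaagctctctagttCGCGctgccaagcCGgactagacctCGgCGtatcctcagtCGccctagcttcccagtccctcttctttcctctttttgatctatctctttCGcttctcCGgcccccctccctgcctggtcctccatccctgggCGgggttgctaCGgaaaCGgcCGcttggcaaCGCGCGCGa
Ntm internal promoter: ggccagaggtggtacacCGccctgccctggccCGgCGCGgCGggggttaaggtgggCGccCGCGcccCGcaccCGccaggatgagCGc
Iglon5 intron 1: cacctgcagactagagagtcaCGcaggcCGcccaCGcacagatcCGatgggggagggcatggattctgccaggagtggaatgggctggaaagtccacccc
The 200 bases of the Negr1 promoter hold 19 CG, against 11 in the 200 bases at the summit. The 88 bases of the Ntm stretch hold 11 CG, and the 100 bases of the Iglon5 stretch hold 4.

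The peak over the Negr1 start was the widest and highest of the 252. It spans chr3:156560373-156563642, a width of 3270 bp, with a maximum signal of 585 (rank 151 of the list) and a total signal of 767929 (rank 4). It was not of constant height, with a ratio of 0.401 of total signal to maximum times width. The peak covers all annotated Negr1 starts, 5 transcripts between 156561794 and 156562150. Its neighbours in the order of total signal were the peaks assigned to Stac3 (1027054), Lrig3 (884413) and Bhlhe40 (853180) above it and to Dlg4 (750412), Dnmt3a (744612) and Slc8a2 (742571) below it. Stac3 encodes an adaptor of muscle excitation, Bhlhe40 a transcriptional repressor of the circadian clock, Dlg4 a postsynaptic scaffold, Dnmt3a a DNA methyltransferase and Slc8a2 a sodium-calcium exchanger.

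The same peak covers the start of 4930570G19Rik, which is transcribed from the opposite strand. Negr1 (ENSMUSG00000040037.13) lies at chr3:156561794-157316445 on the + strand, and 4930570G19Rik (ENSMUSG00000085084.7) at chr3:156546753-156561746 on the - strand, so the genes run in opposite directions from starts 48 bp apart. The maximum of the peak, at 156560890 to 156560891, lay 904 bp upstream of the first Negr1 start and 856 bp inside 4930570G19Rik, in an intron of that gene. The authors' table measured a distance of 691 bp to a 4930570G19Rik start and gave the peak to that gene. By the authors' table Negr1 therefore had 0 peaks within 1 kb of a start, and the nearest peak assigned to it lay 31416 bp away. Of lncRNA genes classed as lincRNA in GENCODE, 7.29% (427 of 5854) had a peak that overlapped a start. The peak was part of the rule here, so nothing is read from that share.

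Ntm and Opcml had their highest peaks at internal starts. Ntm (ENSMUSG00000059974.10, chr9:28994750-29963141, - strand) had a peak at chr9:29412113-29412773 over a start 550.9 kb into the gene, with a maximum signal of 338 (rank 1494) and a total signal of 132180. At the 5′ end of Ntm, a peak 1 bp upstream of the start had a maximum of 88 and a second one, 0.331 kb into the gene, had 134, both of constant height. Opcml (ENSMUSG00000062257.13, chr9:27790775-28925410, + strand) had a peak at chr9:28402636-28403668 over a start 612.4 kb into the gene, with a maximum of 472 (rank 391) and a total of 182252. At the 5′ end of Opcml the peak over the start had a maximum of 15 and a constant height. In both genes the internal start thus carried the higher peak, 338 against 88 and 134 in Ntm and 472 against 15 in Opcml. These internal peaks were the highest of their genes.

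Lsamp (ENSMUSG00000061080.11, chr16:39984361-42181679, + strand) had only low peaks at its starts. The peak over its 5′ start, chr16:39984304-39984584, had a maximum signal of 53, and the peak 863 bp downstream of a start 1548.5 kb into the gene had 52, both of constant height. No peak lay within 1 kb of the start 2159.6 kb into the gene, where the nearest was 45696 bp away. Iglon5 (ENSMUSG00000013367.5, chr7:43472904-43490075, - strand) had no peak over a start. Its nearest peaks were 942 bp downstream of the 5′ start (chr7:43488468-43489133, maximum 169) and 720 bp upstream of an internal start (maximum 158), and neither was of constant height.

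**Figure D1:**
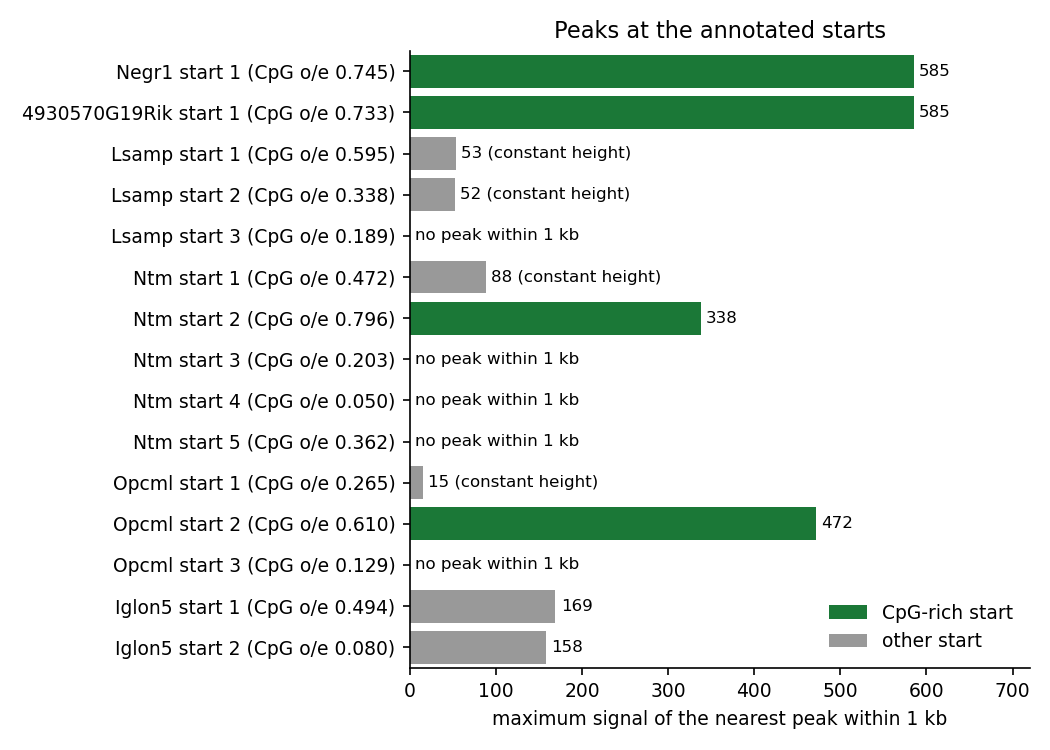
Maximum signal (no unit given by the authors) of the nearest peak within 1 kb of each of the 15 start clusters, with the observed-to-expected CpG ratio in the label and CpG-rich starts in green. The bars of Negr1 and 4930570G19Rik are the same peak, and the 3 highest peaks (585, 472 and 338) lie at the 4 CpG-rich starts.

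Annotated starts of a gene within 1000 bp of each other were taken as 1 start cluster, which gave 14 clusters for the 5 coding genes and 1 for 4930570G19Rik. A cluster was called CpG-rich when the 1 kb around its 5′-most start had a GC content of at least 50% and an observed-to-expected CpG ratio of at least 0.6. The clusters of Negr1 (64.3% GC, ratio 0.745), 4930570G19Rik (63.9%, 0.733), the internal start of Ntm (63.8%, 0.796) and that of Opcml (61.2%, 0.610) met both limits. The 5′ start of Lsamp fell just short (55.5%, 0.595), and the 5′ starts of Iglon5 (70.3%, 0.494), Ntm (47.3%, 0.472) and Opcml (48.5%, 0.265) lay further below. The bar plot of start peaks shows that the 3 peaks with a maximum of 200 or more lay at these 4 clusters. This division was made after the peak heights had been seen, so it is a description. Over the whole width of these 3 peaks the ratio was 0.519 at Negr1, below the limit, 0.601 at Opcml and 0.872 at Ntm.

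Distance was measured here from the edge of the peak, whichever gene it was assigned to. All 5 coding genes had a peak within 1 kb of a start, where 47.6% of the 21938 protein-coding genes did and 67.6% of the 2492 genes of at least 100 kb. For Iglon5 this holds by the edge only, as the maxima lay 1329 and 1122 bp from the starts. In 4 of the 5, all but Iglon5, a peak overlapped a start (29.7% of protein-coding genes). All 4 are long genes, for which this share was not counted. In 4 of the 5, all but Lsamp, a peak within 1 kb was not of constant height (33.4%, and 51.2% of the long genes). In Negr1, Ntm and Opcml the peak reached a maximum of 200, as in 21.6% of long genes. By start cluster, 9 of 14 had a peak within 1 kb, against 28.7% of all clusters and 28.9% of those in long genes. A peak not of constant height stood at 5 of the 14, against 18.4% in long genes. Among the long members' 3 CpG-rich clusters all 3 had such a peak, where 50.2% of 1862 CpG-rich clusters in long genes did (64.8% had a peak of any shape). Among their 9 other clusters 4 had a peak of any shape (20.0% of 7524) and 0 had one not of constant height (10.5%). The Negr1 peak is in these counts and belonged to the rule, so they are no evidence on the family.

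Most member peaks lay far from the starts, inside the long genes. By the authors' classes, 202 of 252 were in introns (80.2%, 95% Wilson interval 74.8 to 84.6, against 38.0% of all annotated peaks) and 102 were in intron 1 (40.5%, 34.6 to 46.6, against 12.4%). Only 13 were in promoters, within 3 kb of a start (5.16%, 3.04 to 8.62, against 24.6%), and 32 were distal intergenic (12.7%, against 31.9%). By the authors' distance, which runs from the region of maximum signal and not from the peak edge, 9 lay within 1 kb (3.57%, against 15.3%). The authors' classes count an intron of any transcript, also outside the members. With GENCODE introns of the members alone, the intron share was 79.8%. The promoter and intron shares of 595 peaks at 30 other neuronal adhesion genes of the immunoglobulin superfamily were 12.3% and 57.8%, and 20.2% of those peaks lay in intron 1. The IgLON genes other than Iglon5 are much longer than most genes, which leaves more intron per start, and the part of gene length in these shares was not tested.

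**Figure D2:**
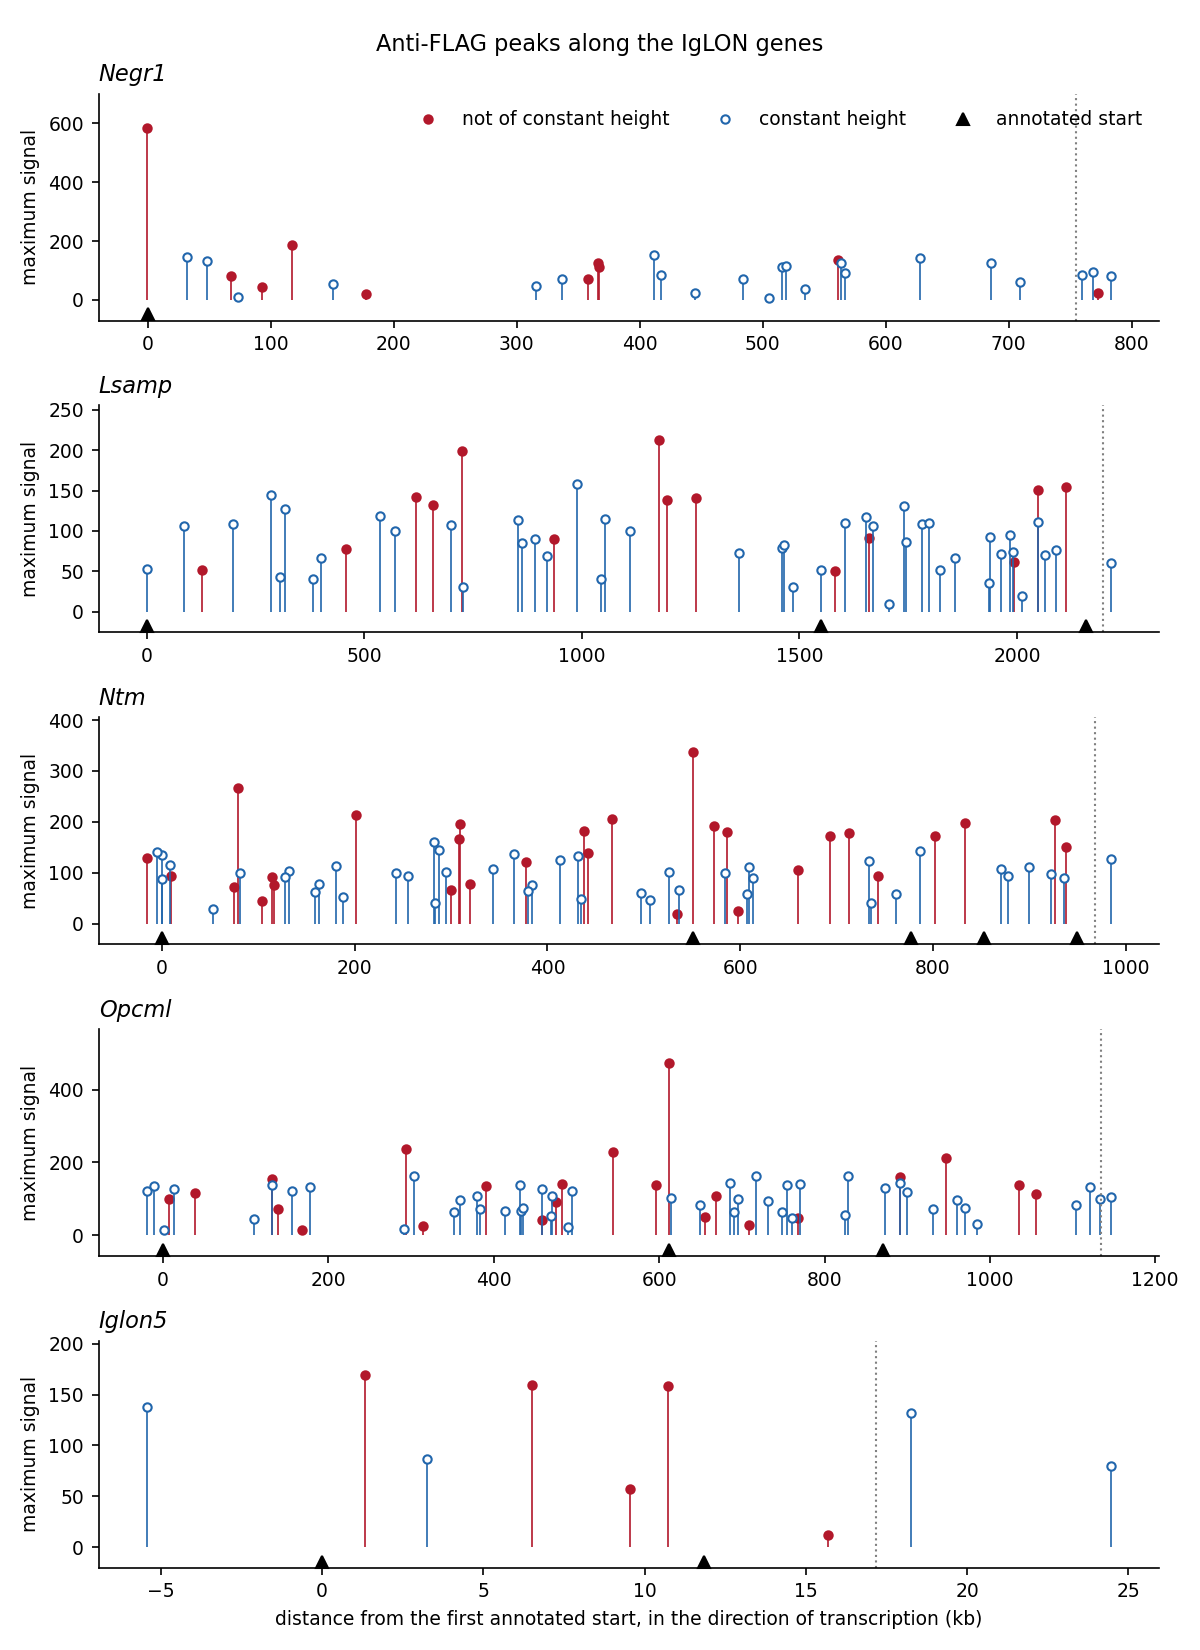
Maximum signal of every peak along each coding gene, whichever gene it was assigned to, against the distance in kb from the first annotated start in the direction of transcription. Triangles mark annotated starts, the dotted line the end of the gene, open circles constant-height peaks and filled circles the others, and each panel has its own scale. The tallest stem stands at the 5′ start in Negr1 (585) and at an internal start in Ntm (338) and Opcml (472).

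Negr1 held 27 peaks over its 754.7 kb by the middle of their region of maximum signal, of which 17 were assigned to it. The peak over its start is not among them, since its maximum lies upstream, and 28 peaks overlap the gene when it is included. These 17 had a maximum signal from 9 to 188, with a median of 72, and 10 were of constant height. The highest, at chr3:156678759-156679049 in intron 1 of 6, reached 188. The other 10 lay between 157066926 and 157271159 in the 3′ part of the gene and were assigned to 4930592C13Rik, an antisense gene beyond the end of Negr1, whose start is 262.9 to 466.6 kb away from them. These had a median maximum of 113.5, and 9 of the 10 were of constant height. The deposited table thus leaves Negr1 without its start peak and without all 10 of those 3′ peaks. The largest stretch without a peak in Negr1 was 137.6 kb, chr3:156739356-156876940. Of the 6 peaks assigned to 4930570G19Rik, 5 lay in the intergenic region downstream of it, 56761 to 291562 bp from its start, with maxima of 68, 42, 129, 122 and 206 in order of distance.

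Lsamp is the longest member, at 2197.3 kb, and had the lowest density of peaks. It held 58 of its 65 assigned peaks in its body, with 6 upstream and 1 downstream. Their maxima ran from 9 to 213 with a median of 90, and 50 of the 65 were of constant height (76.9%, 65.4 to 85.5). The highest 2 lay in introns, at chr16:41161075-41161426 (213) and chr16:40709685-40709839 (199). Peaks lay throughout Lsamp, with 17, 15 and 26 in equal divisions of its length from 5′ to 3′.

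Ntm and Opcml lie on chromosome 9 in convergent orientation, with 69340 bp between their 3′ ends. Of the 88 peaks assigned to Ntm, 68 lay in its body, 14 upstream and 6 downstream, and 4 of these 6 lay inside the 3′ part of Opcml. Ntm peaks had maxima from 18 to 338 with a median of 101, and 54 were of constant height (61.4%, 50.9 to 70.9). After its internal start, the highest were chr9:29883898-29884593 in intron 1 of 7 (266) and chr9:30143916-30144326, 181125 bp upstream of the gene (256). Opcml had 69 assigned peaks, 62 of them in its body and 7 upstream, with maxima from 15 to 472 and a median of 101, and 47 were of constant height (68.1%, 56.4 to 77.9). Its next highest were chr9:28083973-28084888 (238) and chr9:28334301-28334953 (229), both in intron 1 of 7.

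Iglon5 differs in size, at 17.2 kb, and 6 of its 7 peaks lay in its body. In order from its start they had maxima of 169, 87, 159, 57, 158 and 12, and only the one of 87 was of constant height. The peak of 12 lay in the 3′ UTR, and the seventh peak, with a maximum of 138, lay upstream of Iglon5 in the 3′ UTR of the next gene, 4931406B18Rik.

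Peak density in the gene bodies, counted in the same way, was divided by the mean density of the chromosome. Ntm had 70.2 peaks per Mb and Opcml 58.2, against 47.8 on chromosome 9, ratios of 1.47 and 1.22. Negr1 had 35.8 against 31.0 on chromosome 3 (1.15), and Lsamp had 26.4 against 36.8 on chromosome 16 (0.718). Over the 5 coding genes and 4930570G19Rik together the ratio was 1.10 (exact Poisson 95% interval 0.959 to 1.25). The median of the 2492 protein-coding genes of at least 100 kb was 1.07, with quartiles of 0.603 and 1.79, so all 4 long IgLON genes lay within the middle range. Among the 230 genes of at least 500 kb the median was lower, 0.751, with quartiles of 0.512 and 1.17. Within that longer set Ntm (rank 38) and Opcml (rank 53) lay above the upper quartile, Negr1 (rank 60) just below it and Lsamp (rank 125) near the median. The genes nearest in ratio were Glod4, Esrrb and Clvs2 for Negr1 (1.15 to 1.16), Dock1, Thsd4 and Ldb2 for Lsamp (0.716 to 0.720), Ppef1, Jarid2 and Fam135b for Ntm (all 1.47) and Arhgap12, Atp8a1 and Mast2 for Opcml (all 1.22). Iglon5 had a ratio of 7.87, from 6 peaks in a short gene.

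**Figure D3:**
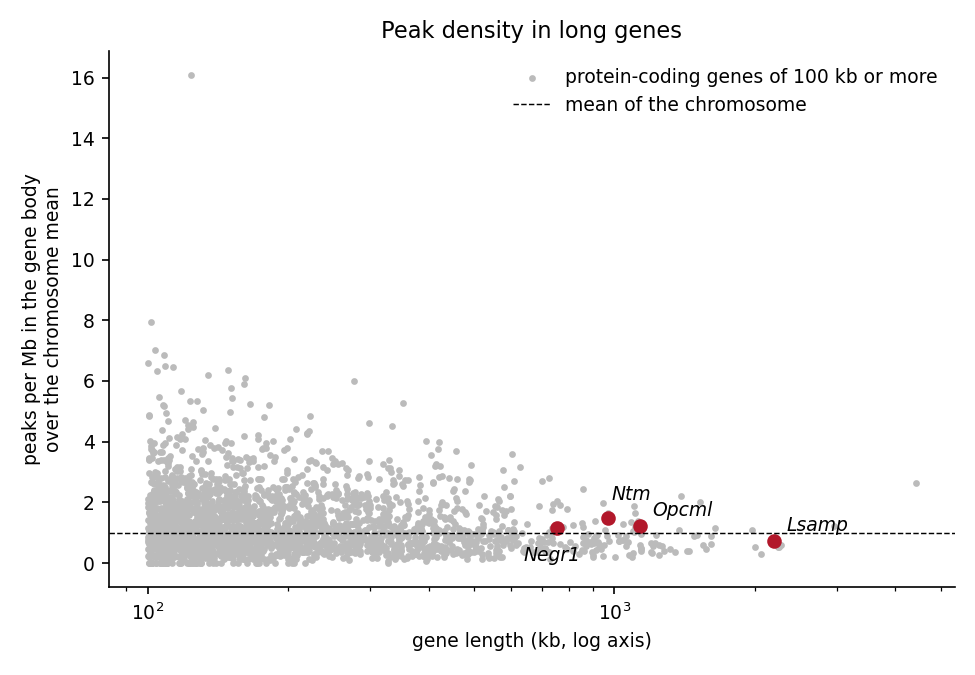
Peaks per Mb in the gene body divided by the chromosome mean (1 is the dashed line), against gene length on a log axis, for 2492 protein-coding genes of at least 100 kb (grey) and the 4 long IgLON genes (red). Ntm, Opcml and Negr1 lie between 1.15 and 1.47 and Lsamp at 0.718, all within the spread of genes of like length.

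The heights of the member peaks resembled those of the list. Their maximum signal had a median of 99 and quartiles of 65 and 133, against 101, 66 and 135 over all peaks, and their width a median of 352 bp against 363 bp. Constant height was found in 165 of 252 (65.5%, 59.4 to 71.1), against 63.3%. Those 165 had a median maximum of 91, as in the whole list, and the 87 others had 126, against 134. High peaks were fewer among the members. A maximum of 200 or more was reached by 13 of 252 (5.16%, 3.04 to 8.62, against 8.78%), and 13 were in the top 10% by total signal. Of the first 13, 6 were Ntm peaks, 4 Opcml, 2 4930570G19Rik and 1 Lsamp, and the lowest of them had 204, with the next Lsamp peak at 199.

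The insulin response sequence, which is known as a DNA element bound by PARIS, was searched as TATTTTT or TATTTTG on both strands (AAAAATA or CAAAATA on the other) in the 200 bp around each peak's maximum. The highest matching peaks of each long gene are shown, and a further one of Lsamp, the gene with the most matches, as 100 bases around the match with the motif in capitals. Only intron peaks were taken, and stretches that touch a UTR or a RefSeq mRNA exon were skipped. The Lsamp match with a maximum of 151, not of constant height, was skipped for this reason. Ntm intron 1 of 7 is chr9:29884230-29884329 (- strand, peak maximum 266), and Opcml intron 1 of 7 is chr9:27922250-27922349 (+ strand, 156). Negr1 intron 2 of 6 is chr3:156927485-156927584 (+ strand, 126). Lsamp intron 2 of 2 is chr16:40972543-40972642 (+ strand, 158, constant height) and Lsamp intron 1 of 2 is chr16:40269763-40269862 (+ strand, 145, constant height).
Ntm intron 1 of 7: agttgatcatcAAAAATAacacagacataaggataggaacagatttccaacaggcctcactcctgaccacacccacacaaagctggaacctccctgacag
Opcml intron 1 of 7: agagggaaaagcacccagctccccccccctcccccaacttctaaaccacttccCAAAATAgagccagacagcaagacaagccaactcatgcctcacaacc
Negr1 intron 2 of 6: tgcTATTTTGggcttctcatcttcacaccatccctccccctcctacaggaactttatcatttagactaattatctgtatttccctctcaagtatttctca
Lsamp intron 2 of 2: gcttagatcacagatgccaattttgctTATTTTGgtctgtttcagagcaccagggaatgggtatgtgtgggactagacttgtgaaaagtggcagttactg
Lsamp intron 1 of 2: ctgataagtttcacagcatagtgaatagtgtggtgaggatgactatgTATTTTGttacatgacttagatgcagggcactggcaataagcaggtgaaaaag
None of these 5 stretches holds a CG, unlike the start sequences shown above.

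The motif was found at the maximum of 42 of 252 member peaks (16.7%, 12.6 to 21.8), and in 16.9% of windows 1000 bp to either side. Over all peaks the shares were 9.95% at the maximum and 13.6% to the sides. Lsamp alone accounted for 21 of the 42: its share was 32.3% (22.2 to 44.4), against 20.8% (14.7 to 28.5) beside its peaks. Of the 65 Lsamp peaks, 50 were of constant height, where the window marks the middle of a flat stretch. Most of the 21 Lsamp matches lay in such peaks. The matching Lsamp peaks not of constant height had maxima of 151, 52 and 50. In Ntm 9 of 88 windows had a match (10.2%) and in Opcml 8 of 69 (11.6%), in both fewer than beside the peaks (13.6% and 15.2%). Negr1 had 3 of 17, against 35.3% of the side windows, 4930570G19Rik 1 of 6 and Iglon5 0 of 7. Matches were found in 34 of the 165 constant-height peaks (20.6%, 15.1 to 27.4) and in 8 of the 87 others (9.20%, 4.73 to 17.1). The 3270 bp peak over the Negr1 start held 3 matches, all AAAAATA, at 1078, 590 and 354 bp upstream of Negr1. None of them lay in the 200 bp around its maximum. The 8 other peaks nearest to starts held 0, but they were narrower, from 72 to 1033 bp.

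**Figure D4:**
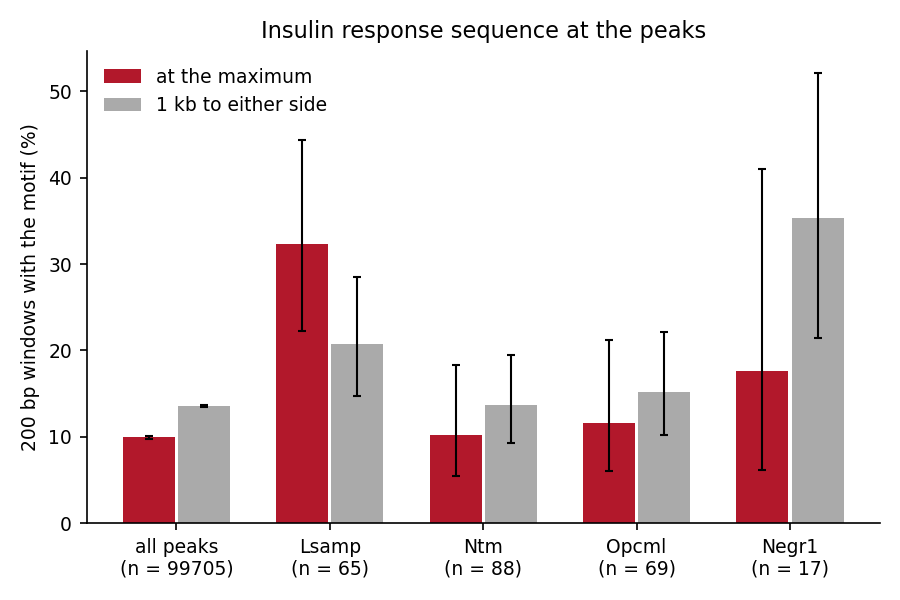
Share of 200 bp windows that hold the motif, at the peak maximum (red) and 1 kb to either side (grey), for all peaks and for the 4 long IgLON genes, with 95% Wilson intervals as bars. Lsamp has the highest share at the maximum (32.3%) and is the only one of the 5 sets in which it is above that of the side windows. Of the 65 Lsamp peaks, 50 are of constant height, and most Lsamp matches lie in such peaks.

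Among the coding genes, the GC content was higher where the motif share at the maximum was lower. At the maximum it averaged 40.3% in Lsamp, 42.2% in Negr1, 45.6% in Opcml, 46.5% in Ntm and 56.4% in Iglon5, against 49.0% over all peaks. The motif holds only A and T or 1 G, and the part of base composition in the motif shares was not tested. Over the 252 windows GC was 44.5% ± 7.27 (SD), which is 2.92 percentage points above the side windows, and over all peaks the difference was 3.44. The difference was 1.75 points in Lsamp, 3 in Negr1, 3.10 in Ntm, 3.79 in Opcml and 7.11 in Iglon5, and in 4930570G19Rik it was -2.33 points.

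Other adhesion genes of neurons gave a frame for the IgLON starts. Of 30 such genes, 25 had a peak within 1 kb of a start, 20 had one not of constant height and 6 had one with a maximum of 200 or more. By total signal the highest start peaks were those of Cadm2 (228405, maximum 520), a synaptic adhesion gene, of Ncam1 (153125, maximum 183), the neural cell adhesion molecule, and of Cntn5 (123852, maximum 294), a contactin. The totals at Opcml (182252) and Ntm (132180) lay in the range of these 3, and that at Negr1 (767929) lay above it. The Negr1 peak was chosen by that total, so nothing is read from its place. The most peaks were assigned to Kirrel3 (54), Nectin1 (44) and Cadm2 (41), fewer than to Ntm (88), Opcml (69) or Lsamp (65). These counts are not adjusted for gene length. Kirrel3 spans 550.8 kb and Nectin1 63.5 kb, against 968.4 kb for Ntm, 1134.6 kb for Opcml and 2197.3 kb for Lsamp. The density ratio was 3.96 in Nectin1, 1.69 in Ncam1, 1.67 in Kirrel3, 0.902 in Cadm2 (965.5 kb) and 0.252 in Cntn5. Ntm had 1.47, Opcml 1.22, Negr1 1.15 and Lsamp 0.718, so the other adhesion genes named here lay on both sides of Ntm.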

How the data were processed

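Read trimming, alignment to mm10 with Bowtie2, removal of duplicates and poor reads, and SEACR peak calling with IgG as control were the authors' steps, per the labels' protocols. Versions and SEACR settings are not given in the sources used here. The deposited peak list gives total and maximum signal per peak, in whole numbers whose scaling is not stated. Its peaks were joined by position to the authors' deposited annotation table, whose copy of the total signal was equal for 100% of the 99782 annotated peaks. A distance to the start in that table is the authors' value.

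Genes, starts and introns came from GENCODE M21 and sequence from GRCm38.p6, both of the mm10 build, with coordinates counted from 1. Peaks were counted in a gene body by the middle of their region of maximum signal. Counts of genes or start clusters with a peak within 1 kb of a start used the edge of the peak. Shares carry 95% Wilson intervals. Scripts ran in Python 3.11.15 with pandas 2.3.3 and pysam 0.24.0 and were tested on simulated data. No test between conditions was made, since each antibody had 1 library.

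The members, lists and measures were chosen with earlier results of these data known. The genes named are the members, their neighbours in rank, density and position, and the top 3 of 30 other adhesion genes by start signal and by peak number. Alternatives were stricter peak sets, merging, other annotations, distances and windows. The CpG division and the start clusters were added later.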

Additional observations from a re-analysis of the deposited data

How the results depend on the processing

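Of 51 alternatives to the 8 summary values, 33 stayed within the interval of the value given or within 1.5 times the count and 18 moved. Among the 33 is the motif share with the side windows placed further away. It could not move, because the share at the maximum does not use the side windows. The motif share of the side windows themselves was not varied. The 13 member peaks in the top 10% by total signal moved most values. In them the share within 1 kb of a start was 23.1%, the intron share 69.2%, the median maximum signal 195, the constant-height share 0%, the density 0.645 of the chromosome mean (below it, where the value over all member bodies, 1.10, was above), the motif share 23.1% and the GC difference 5.81 points. Above the median of maximum signal 116 peaks were left, with 55.2% of constant height and a GC difference of 4.05. Without constant-height peaks 87 were left, with a median maximum of 126, a motif share of 9.20% and a GC difference of 4.48. With peaks of at least 200 bp only, the median maximum was 85 and the constant-height share 52.3%. In windows of 400 bp the motif share was 30.2%; a longer window holds more matches by construction. The cause of the other shifts was not tested. No paired analysis was possible because each antibody had 1 library. The unknown depth and the lack of replicates limit every value, and peak absence at a start does not show absence of PARIS.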
